A study of Talinum fruticosum with 24 samples.

Results

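Transcript levels at the end of the night were compared with those at dusk in drought-treated leaves of Talinum triangulare (named Talinum fruticosum in the labels) that were carrying out crassulacean acid metabolism (CAM). The comparison rests on 6 of the 24 RNA-seq libraries of the study, picked out by their labels: 3 biological replicates harvested at the end of the day (ED, zeitgeber time 12 h, here dusk) and 3 at the end of the night (EN, zeitgeber time 24 h). The comparison itself and the gene lists were chosen with earlier results of these data known. All 6 came from mature leaves of plants that were watered well for 28 d and then left without water for 12 d. Leaves of plants re-watered for 2 d after the same 12 d of drought, labelled reC3 for their return to C3 photosynthesis, were harvested at the same times in 3 replicates each and served to ask whether changes differed between drought and re-watered leaves. Libraries from the middle of the day and of the night (MD and MN, zeitgeber times 6 h and 18 h) were taken over from an earlier series, per the labels. Time and series cannot be told apart in them, so their levels are described and not tested. They did enter the main fit, and so the gene filter, the scaling and the estimate of the spread behind its p-values. Re-watered plants had been through the drought too, and no group of leaves that had never been droughted is used here, so photosynthetic mode and water supply cannot be told apart. Whether the leaves were pooled from several plants, and whether replicates shared a plant, is not given in the labels, so p-values measure the spread between these libraries. In whole leaves, fewer cells of a type and less RNA per cell cannot be told apart.

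In CAM, stomata open mainly at night. Phosphoenolpyruvate carboxylase (PEPC) then fixes CO2, the product is reduced to malate, and malic acid is stored in the vacuole. By day the malate is decarboxylated behind closed stomata, and the released CO2 enters the Calvin-Benson cycle. The PEP used at night comes from breakdown of starch or soluble sugars, so carbon stores turn over in the opposite rhythm to the acid. The circadian clock, a loop of transcription factors that repress each other at different times of day, is known to gate PEPC activity in CAM plants through PEPC kinase, which phosphorylates PEPC and makes it less sensitive to inhibition by malate. Dusk and the end of the night are the moments before and after the nocturnal phase of CO2 uptake.

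The 6 libraries held 6008515 to 8083361 counts each, and the mean correlation of each with its partners, across genes, was 0.978 to 0.984. Reads were assigned to Arabidopsis thaliana gene identifiers, so Talinum transcripts of a gene family can be split among, or share, the identifiers of close paralogs. Values of single members of a family, such as the kinases PPCK1 and PPCK2, the peroxisomal malate dehydrogenases PMDH1 and PMDH2 or the proline dehydrogenases PRODH1 and PRODH2, are uncertain for that reason. The same holds for the clock factors LHY and CCA1. Levels are given as CPM, counts per 1000000 counts of the TMM-scaled library total. They are not per length and are compared between times, not between genes. Changes are log2 values with their standard error (SE), positive where the level was higher at the end of the night, and "rose" and "fell" are used in that sense for genes with an adjusted p under 0.05. Every p is an adjusted p (Benjamini-Hochberg) of edgeR's quasi-likelihood test over 14065 genes, with 1 estimate of the spread over all 8 groups of libraries. The SE was worked back from that test, as the size of the change divided by the square root of its F statistic. The re-watered libraries of the end of the night varied more than the others, so calls that turn on this are also given from the 6 libraries alone. Among the re-watered libraries at the end of the night, replicate 1 stood apart (mean correlation with its partners 0.941), so differences between modes are also given without it.

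Most genes (63.7%) differed between the times. Of 14065 genes tested, 4432 rose (31.5%) and 4524 fell (32.2%), and with a change of at least 2-fold required as well the numbers were 2780 (19.8%) and 3097 (22.0%). In 33.7% of genes every library of the end of the night lay above every dusk library, and in 35.2% every one lay below, so an absence of overlap is common here. The TMM factors differed between the times (1.14 to 1.24 at dusk and 0.842 to 0.904 at the end of the night), and with libraries scaled by their totals alone the median change of all genes moved from -0.014 to -0.46. The calls then divided into 2648 risen and 6248 fallen genes, or 29.8% of calls upwards in place of 49.5%. A rise smaller than this shift is therefore not fixed in direction, and counts of a list are given under both scalings where they differ by over 1.5 times. Every count of risen or fallen list members is to be read beside the 31.5% and 32.2% of all genes. An 8-fold rise or more was found for 527 genes, and an equally large fall for 535. The scatter of mean levels at both times shows this spread, with the genes of the clock and of starch breakdown among the farthest from the line of equal levels.

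**Figure D1:**
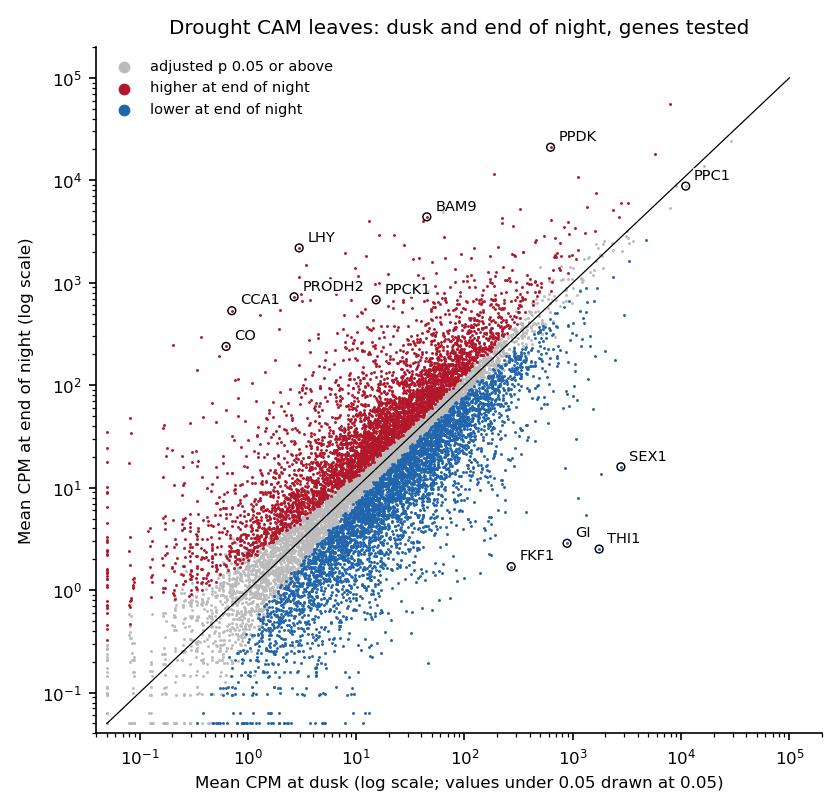
Mean level of each gene tested at dusk (x axis) and at the end of the night (y axis) in drought CAM leaves, in CPM on log scales, over 3 libraries each; red and blue points passed the adjusted p of 0.05, and the line marks equal levels. LHY and CCA1 lie far above the line and GI, THI1 and SEX1 far below it, while PPC1 lies close to it.

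The largest rises included the core of the morning clock. The rule for naming took the 12 largest changes in each direction among genes with at least 10 CPM at the higher time and no overlap between libraries. LHY (AT1G01060), a Myb-like repressor expressed around dawn, stood at 3.41, 2.97 and 2.55 CPM at dusk and 2053, 2249.9 and 2259 CPM at the end of the night. Its partner CCA1 (AT2G46830) stood at 0.632, 0.832 and 0.671 CPM at dusk and 464, 585 and 552 CPM at the end of the night. Both were low in every dusk library and high in every library at the end of the night, with a log2 change of 9.51 for LHY and 9.51 for CCA1 (SE 0.25 and 0.27, adjusted p = 2.9e-17 and 5.4e-17). LHY and CCA1 could share reads of 1 Talinum transcript, so they may not be separate rises. CONSTANS-LIKE 2 (COL2), a zinc-finger protein of the CONSTANS family, rose by 8.58 from 2.98 ± 1.27 to 1149.8 ± 101 CPM (SE 0.41, adjusted p = 2.0e-13).

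The top of the list of rises also held AT1G18265, a protein of unknown function with a DUF593 domain in the table's annotation, at 0.253, 0.357 and 0 CPM at dusk and 258, 221 and 261 CPM at the end of the night (log2 change 10.08, SE 0.45, adjusted p = 5.7e-14). The auxin efflux carrier family protein AT1G20925 rose from 0.369 ± 0.329 to 296 ± 51.2 CPM (log2 change 9.55, SE 0.49, adjusted p = 8.3e-13), and its relative AT1G76520 from 0.342 ± 0.384 to 141 ± 31.1 CPM (log2 change 8.63, SE 0.47, adjusted p = 1.5e-12). Identifiers for Serinc-domain proteins, annotated with serine and sphingolipid synthesis, were AT4G13345, with 3.41 ± 2.63 CPM at dusk and 1479 ± 248 CPM at the end of the night (mean ± SD, n = 3), and AT3G24460, with 1.72 ± 0.860 CPM at dusk and 716 ± 116 CPM at the end of the night (mean ± SD, n = 3). Their changes were 8.77 and 8.71 (adjusted p = 1.2e-12 and 1.3e-12). They could share reads of 1 Talinum transcript. 4 further genes had at most 2 counts over the 3 dusk libraries, so a counting ratio or a lower bound takes the place of the fitted change. REVEILLE 1 (RVE1), a Myb-like factor related to CCA1, had 2 counts at dusk and 918 at the end of the night, a ratio of 574 (95% interval 159 to 4750.4). The B-box protein BBX32 had 1 and 654 counts, a ratio of 818 (95% interval 146 to 32376). The palmitate desaturase FADA (AT4G27030) had 1 and 461 counts, a ratio of 577 (95% interval 103 to 22836). AT1G62190, with a Kua-ubiquitin conjugating enzyme hybrid localisation domain, had no count at dusk and 191 at the end of the night, so it was at least 79.7-fold higher. Each ratio has an exact 95% interval that covers counting error only, and the floor behind the bound is 3 counts over the group.

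Among the largest falls were enzymes of vitamin B1 synthesis, an evening clock gene and the kinase that opens starch granules to attack. THI1 (AT5G54770), which makes the thiazole part of thiamine, stood at 1766, 1859 and 1630.4 CPM at dusk and 4.19, 2.42 and 0.946 CPM at the end of the night (log2 change -9.40, SE 0.60, adjusted p = 1.9e-11). THIC (AT2G29630), which makes the pyrimidine part, fell from 1334 ± 205 to 5.36 ± 0.965 CPM (log2 change -7.95, SE 0.59, adjusted p = 2.7e-10). GIGANTEA (GI, AT1G22770), an evening protein of the clock and of photoperiodic flowering, stood at 813, 945 and 898 CPM at dusk and 4.34, 1.99 and 2.27 CPM at the end of the night (log2 change -8.25, SE 0.31, adjusted p = 4.3e-15). The rule for naming required groups without overlap, and each of these genes was at a few CPM in every library at the end of the night. SEX1 (AT1G10760), glucan, water dikinase, fell from 2782 ± 458 to 16 ± 1.90 CPM (log2 change -7.44, SE 0.30, adjusted p = 1.2e-14). FKF1, a blue light receptor F-box protein that acts with GI, fell from 270.1 ± 40.7 to 1.70 ± 0.639 CPM (log2 change -7.27, SE 0.28, adjusted p = 6.7e-15). The chaperonin-like RbcX protein AT4G04330, an assembly chaperone of Rubisco, fell from 1128 ± 209.7 to 7.91 ± 2.37 CPM (log2 change -7.17, SE 0.42, adjusted p = 4.5e-12), and the RNA-binding protein AT2G21660 (cold, circadian rhythm, and RNA binding 2), a clock output in Arabidopsis, from 1830.4 ± 97.8 to 13.5 ± 2.66 CPM (log2 change -7.08, SE 0.26, adjusted p = 2.8e-15).

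The remaining large falls were of genes outside these pathways. AT1G06460 (ACD32.1, an alpha-crystallin domain protein) fell from 46.3 ± 13.0 to 0.194 ± 0.169 CPM (log2 change -7.67, SE 0.58, adjusted p = 2.7e-10), and AT1G51100, which has no description in the table, from 138 ± 11.2 to 1.46 ± 0.683 CPM (log2 change -6.53, SE 0.42, adjusted p = 2.1e-11). The flavin-dependent monooxygenase FMO1 (AT1G19250), known from plant immunity, had 316 counts at dusk and 1 at the end of the night, or fewer by a ratio of 253 (95% interval 45.0 to 10004). AT1G48460, also without a description, had 287 and 1 counts, or fewer by a ratio of 229 (95% interval 40.8 to 9089). The receptor-like protein kinase-related AT1G63550 had 273 counts at dusk and none at the end of the night, at least 72.7-fold lower. All 24 genes of this rule kept their side of the threshold when any 1 of the 6 libraries was left out. The rule took the largest changes past that threshold, so this adds no separate support.

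Morning and evening genes of the clock moved in opposite directions. Of 11 morning factors tested, 8 rose and 3 fell, with a median change of 5.50 (4.24 with the genes of 3 counts or fewer at their floor values), beside -0.014 for all genes tested. LHY and CCA1, which may share reads, are both among the 8. RVE8, an activator of evening genes that peaks in the morning, stood at 12.0, 11.4 and 13.2 CPM at dusk and 506, 539 and 610.3 CPM at the end of the night (log2 change 5.50, SE 0.20, adjusted p = 2.8e-15). RVE2 rose from 0.166 ± 0.194 to 38.3 ± 7.73 CPM (log2 change 7.69, SE 0.42, adjusted p = 1.2e-12), and RVE7 had no count at dusk and 43 at the end of the night, at least 17.9-fold higher. The co-activators of the LNK family divided. LNK2 rose from 2.51 ± 0.664 to 8.92 ± 0.377 CPM (log2 change 1.83, SE 0.41, adjusted p = 5.9e-04) and LNK3 from 0.719 ± 0.271 to 13.9 ± 4.18 CPM (log2 change 4.24, SE 0.35, adjusted p = 7.7e-10), while LNK1 fell from 34.6 ± 3.63 to 5.65 ± 1.70 CPM (log2 change -2.63, SE 0.34, adjusted p = 9.8e-07). RVE6 fell by a smaller amount, from 49.1 ± 6.56 to 30.4 ± 0.941 CPM (log2 change -0.69, SE 0.15, adjusted p = 4.7e-04). RVE3 fell as well (log2 change -0.88, SE 0.34, adjusted p = 0.0272), a call that was lost without CAM ED replicate 2, CAM EN replicate 2 or CAM EN replicate 3, with adjusted p up to 0.0897.

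The pseudo-response regulators, repressors that follow each other through the day, were mostly lower at the end of the night. Of 5 members, 4 fell and none rose. PRR7 stood at 35.8, 35.4 and 36.5 CPM at dusk and 0.449, 1.28 and 1.89 CPM at the end of the night (log2 change -4.92, SE 0.32, adjusted p = 1.3e-11), PRR5 at 37.8, 39.1 and 37.2 CPM at dusk and 4.34, 3.70 and 4.16 CPM at the end of the night (log2 change -3.22, SE 0.33, adjusted p = 3.0e-08) and PRR3 at 16.9, 17.35 and 17.2 CPM at dusk and 3.74, 2.56 and 2.65 CPM at the end of the night (log2 change -2.51, SE 0.25, adjusted p = 1.5e-08). For each of these 3 genes the dusk libraries lay close together and well above those of the end of the night. TOC1 (PRR1), the evening member of the family, fell by 0.49 (SE 0.13, adjusted p = 0.00176), from 167 ± 17.41 to 119 ± 10.6 CPM. PRR9, the earliest member of the day in Arabidopsis, stood at 2.02, 2.61 and 2.68 CPM at dusk and 4.79, 3.56 and 2.65 CPM at the end of the night, its groups overlapped, and its change of 0.60 (SE 0.38) did not pass the test (adjusted p = 0.177). Its mean at midday was 76.6 ± 15.1 CPM.

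Evening genes fell nearly throughout, with 7 of 8 lower at the end of the night and a median change of -2.68. The evening complex of Arabidopsis, which represses its targets in the early night, consists of ELF3, ELF4 and LUX. ELF3 stood at 54.3, 72.1 and 79.4 CPM at dusk and 28.4, 26.4 and 18.6 CPM at the end of the night (log2 change -1.48, SE 0.19, adjusted p = 5.6e-07), and LUX at 25.1, 32.7 and 22.01 CPM at dusk and 4.04, 2.84 and 6.25 CPM at the end of the night (log2 change -2.63, SE 0.24, adjusted p = 2.7e-09). ELF4 had 210 counts at dusk and 2 at the end of the night, or fewer by a ratio of 83.9 (95% interval 22.9 to 697). All 3 were thus lower in every library at the end of the night. The F-box proteins ZTL and LKP2, relatives of FKF1, fell by 2.27 and 2.72 (SE 0.12 and 0.25, adjusted p = 7.4e-13 and 3.2e-09). CHE, a TCP factor that binds the CCA1 promoter in Arabidopsis, was the exception and rose from 6.22 ± 2.22 to 14.2 ± 4.91 CPM (log2 change 1.19, SE 0.26, adjusted p = 4.1e-04). In the earlier libraries GI averaged 353 ± 15.7 CPM at midday and 50.4 ± 10.5 CPM at midnight, LHY 129 ± 24.6 and 149 ± 16.7 CPM, and TOC1 9.48 ± 1.53 and 167 ± 4.91 CPM. Of the 4 times, LHY, CCA1 and RVE8 were thus highest at the end of the night, GI and FKF1 at dusk, and PRR3, PRR5 and PRR9 at midday by their means, as the plot of clock transcripts shows for 8 of the genes.

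**Figure D2:**
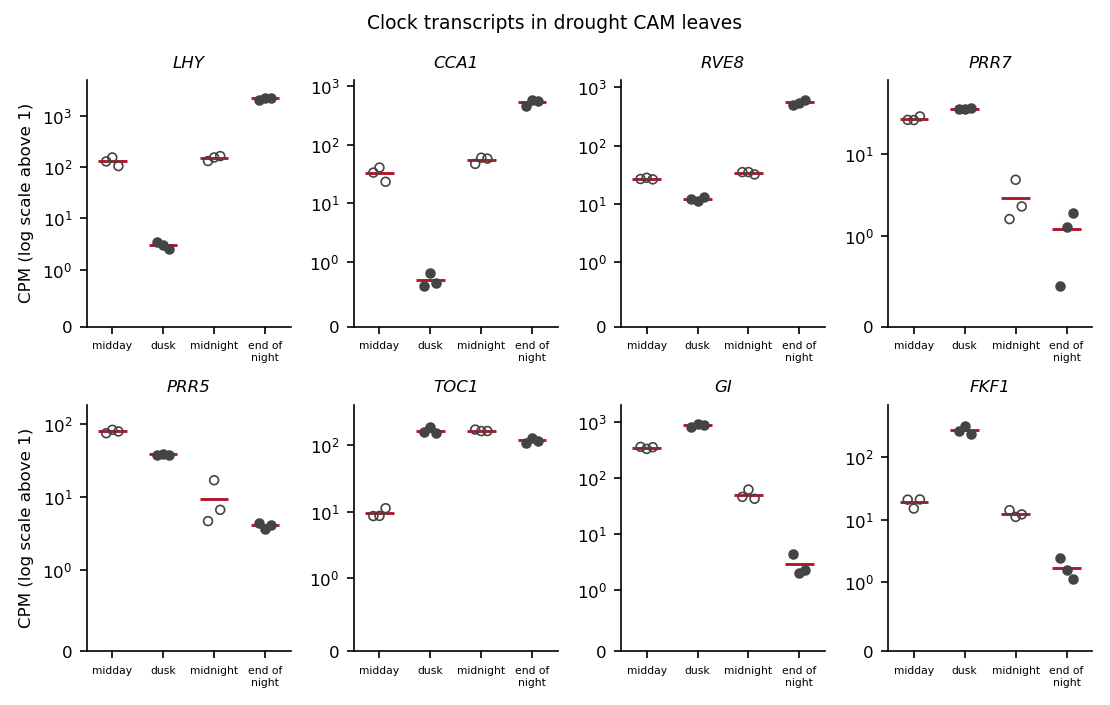
Level of 8 clock transcripts in drought CAM leaves at 4 times, in CPM (log scale above 1); points are libraries (3 at each time), bars their means, and open points libraries of the earlier series. LHY, CCA1 and RVE8 peak at the end of the night, where PRR7, PRR5, GI and FKF1 have their lowest mean.

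Light signalling and photoperiod genes were higher at the end of the night more often than lower (16 of 26 against 5, median 1.52). CONSTANS (CO), which promotes flowering in long days in Arabidopsis, stood at 0.505, 0.713 and 0.671 CPM at dusk and 224, 253 and 240.4 CPM at the end of the night (log2 change 8.53, SE 0.36, adjusted p = 1.7e-14). The B-box protein BBX18 rose from 1.43 ± 0.402 to 135 ± 5.09 CPM (log2 change 6.55, SE 0.24, adjusted p = 2.8e-15), and the blue light receptor CRY1 from 137 ± 16.5 to 677 ± 99.97 CPM (log2 change 2.302, SE 0.15, adjusted p = 2.5e-11). CDF2, a repressor of CONSTANS transcription that FKF1 and GI target for degradation in Arabidopsis, rose from 4.57 ± 0.368 to 63.3 ± 3.62 CPM (log2 change 3.78, SE 0.18, adjusted p = 1.2e-13).

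Among the genes of nocturnal CO2 fixation, PEPC itself did not pass the test, whereas those of its kinase were far higher at the end of the night. PPC1 (AT1G53310) stood at 11423, 11401 and 10270.3 CPM at dusk and 10029.8, 8501 and 7798 CPM at the end of the night. Its libraries were slightly lower at the end of the night without overlap, and its change of -0.33 (SE 0.34) did not pass the test (adjusted p = 0.413). PPC2, which may share its reads, had a difference of -0.58 (SE 0.34, adjusted p = 0.143). With the 6 libraries alone PPC1 did not pass either (-0.34, adjusted p = 0.117), but PPC2 did (-0.59, adjusted p = 0.0131). PPCK1 (AT1G08650), the kinase that activates PEPC, stood at 24.9, 10.9 and 10.1 CPM at dusk and 637, 664 and 744 CPM at the end of the night (log2 change 5.48, SE 0.39, adjusted p = 1.1e-10), and PPCK2 at 5.18, 3.57 and 3.09 CPM at dusk and 119, 134 and 122 CPM at the end of the night (log2 change 4.98, SE 0.32, adjusted p = 1.9e-11). Every library of the end of the night was thus above every dusk library for both kinase identifiers by more than an order of magnitude. In the earlier libraries PPCK1 averaged 137 ± 21.8 CPM at midday and 378 ± 15.3 CPM at midnight, so its mean was lowest at dusk and highest at the end of the night. The bacterial-type PEPC gene PPC4 fell from 4.93 ± 1.19 to 0.922 ± 0.562 CPM (log2 change -2.42, SE 0.42, adjusted p = 3.0e-05).

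Carbonic anhydrases, which supply PEPC with bicarbonate, did not move together. BCA1 stood at 12109.7, 10819 and 4241 CPM at dusk and 7035, 10006 and 9215 CPM at the end of the night, with overlapping groups (log2 change -0.049, SE 0.57, adjusted p = 0.947), and BCA3 showed the same overlap (log2 change 0.33, SE 0.51, adjusted p = 0.593). BCA5 and BCA6 rose by 2.58 and 2.84 (SE 0.25 and 0.29, adjusted p = 1.0e-08 and 2.3e-08). Malate dehydrogenases interconvert oxaloacetate and malate. The cytosolic cNAD-MDH1 rose from 122 ± 6.83 to 456 ± 25.8 CPM (log2 change 1.90, SE 0.17, adjusted p = 1.7e-09), and the peroxisomal PMDH1 stood at 381, 347 and 318 CPM at dusk and 1775, 2162 and 2108 CPM at the end of the night (log2 change 2.53, SE 0.25, adjusted p = 9.8e-09). PMDH2 rose by 2.44 (SE 0.24, adjusted p = 8.2e-09) and the chloroplast NADP-MDH by 0.95 (SE 0.18, adjusted p = 6.2e-05). The plastidial pNAD-MDH moved the other way, from 148 ± 23.3 to 29.0 ± 2.17 CPM (log2 change -2.36, SE 0.29, adjusted p = 2.9e-07). The mitochondrial mMDH1 rose by 0.54 (SE 0.18, adjusted p = 0.0136), but not without CAM ED replicate 2 (adjusted p = 0.0509) and not with libraries scaled by their totals alone (0.090, adjusted p = 0.605). cNAD-MDH3 was near 1 CPM at both times (log2 change 0.46, SE 0.64, adjusted p = 0.546). In all, 9 of 16 members of this list rose and 2 fell (median 0.74).

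Of the genes for daytime decarboxylation and recovery of PEP, pyruvate, orthophosphate dikinase (PPDK, AT4G15530) changed most. PPDK turns the pyruvate left by malic enzyme back into PEP, and it stood at 535, 350.5 and 987 CPM at dusk and 21265, 22624 and 19194 CPM at the end of the night (log2 change 5.07, SE 0.64, adjusted p = 6.5e-07). The 3 dusk libraries spread more, relative to their mean, than those of the end of the night, and all lay far below them. Its mean in the earlier libraries was 4617 ± 1036 CPM at midday and 12234 ± 3636 CPM at midnight. NADP-malic enzymes, which release CO2 from malate, rose as well, NADP-ME4 from 235 ± 29.3 to 1069 ± 151 CPM (log2 change 2.18, SE 0.22, adjusted p = 1.2e-08), NADP-ME1 by 1.87 and NADP-ME2 by 1.61 (SE 0.22 and 0.21, adjusted p = 1.2e-07 and 8.9e-07). The mitochondrial NAD-malic enzymes did not pass the test, with changes of 0.24 for NAD-ME1 and 0.13 for NAD-ME2 (adjusted p = 0.0773 and 0.367). PEP carboxykinase, which other CAM plants use for decarboxylation, was at 9.22 ± 3.28 CPM at dusk and 13.4 ± 1.07 CPM at the end of the night (mean ± SD, n = 3) for PCK1 (log2 change 0.53, SE 0.27, adjusted p = 0.0897), and PCK2 had a mean near 1 CPM at both times (log2 change 0.075, SE 0.58, adjusted p = 0.919).

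The regulators and carriers around PPDK took other courses. RP1, the bifunctional protein that switches PPDK on and off, stood at 56.1, 58.1 and 47.5 CPM at dusk and 61.0, 68.0 and 61.0 CPM at the end of the night (log2 change 0.23, SE 0.14, adjusted p = 0.159), and RP2 had a difference of -0.015 (SE 0.17, adjusted p = 0.945). PPT1, which exchanges PEP and phosphate across the plastid envelope, stood at 106, 102 and 97.2 CPM at dusk and 28.7, 20.1 and 29.9 CPM at the end of the night (log2 change -1.95, SE 0.25, adjusted p = 4.8e-07). PPT2 fell by 0.82 (SE 0.29, adjusted p = 0.0183), a call that was lost without CAM ED replicate 2, CAM EN replicate 1 or CAM EN replicate 3 (adjusted p up to 0.104). The pyruvate carrier BASS2 had a difference of -0.14 (SE 0.30, adjusted p = 0.699). Over the list, 4 of 13 members rose and 2 fell (median 0.23), the share that rose being close to the 31.5% of all genes.

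Malate and dicarboxylate carriers were nearly all higher at the end of the night. Of 9 tested, 8 rose and none fell (median 1.49, and 6 rose under library totals alone). The tonoplast channel family ALMT, through which malate is thought to enter the vacuole, showed modest rises. ALMT4 stood at 18.2, 20.9 and 17.45 CPM at dusk and 31.4, 28.7 and 42.6 CPM at the end of the night (log2 change 0.86, SE 0.18, adjusted p = 2.7e-04), ALMT6 rose by 0.98 (SE 0.14, adjusted p = 3.3e-06), and ALMT9 by 0.58 (SE 0.25, adjusted p = 0.0437). The ALMT9 groups overlapped, and its call was lost without CAM ED replicate 1, CAM ED replicate 3, CAM EN replicate 1 or CAM EN replicate 2 (adjusted p up to 0.148). With library totals alone neither ALMT4 (0.40, adjusted p = 0.0864) nor ALMT9 (0.14, adjusted p = 0.693) passed. ALMT12, an anion channel of guard cells, rose from 0.719 ± 0.271 to 6.44 ± 2.84 CPM (log2 change 3.15, SE 0.37, adjusted p = 1.3e-07). The tonoplast dicarboxylate transporter TDT was at 6.82, 8.08 and 1.07 CPM at dusk and 2.39, 2.99 and 6.25 CPM at the end of the night, with overlapping groups (log2 change -0.50, SE 0.81, adjusted p = 0.610).

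Mitochondrial dicarboxylate carriers rose from low levels, DIC1 from 2.90 ± 0.980 to 14.9 ± 6.60 CPM (log2 change 2.35, SE 0.43, adjusted p = 7.4e-05), DIC2 from 2.803 ± 0.696 to 19.4 ± 10.3 CPM (log2 change 2.78, SE 0.47, adjusted p = 2.9e-05) and DIC3 from 0.680 ± 0.411 to 5.56 ± 2.00 CPM (log2 change 2.99, SE 0.52, adjusted p = 3.6e-05). Their means in the earlier midday libraries were 896 ± 63.0, 1024 ± 102 and 353 ± 35.0 CPM, so both times compared here lie far below midday. DIT1, the chloroplast carrier for oxoglutarate and malate, stood at 153, 115 and 96.2 CPM at dusk and 282, 361 and 377 CPM at the end of the night (log2 change 1.49, SE 0.39, adjusted p = 0.00230). Subunits of the vacuolar proton pumps, which drive malate into the vacuole, rose for 9 of 22 and fell for 1, beside 31.5% and 32.2% of all genes. Under library totals alone the counts turned to 2 and 6. The changes were small, as for VHA-a2 (log2 change 0.64, SE 0.17, adjusted p = 0.00268) and VHA-c5 (log2 change 0.55, SE 0.13, adjusted p = 0.00120), whose changes under library totals alone were 0.19 and 0.10. The plot of CAM cycle transcripts sets PPC1 beside the kinases, PPDK and the other members.

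**Figure D3:**
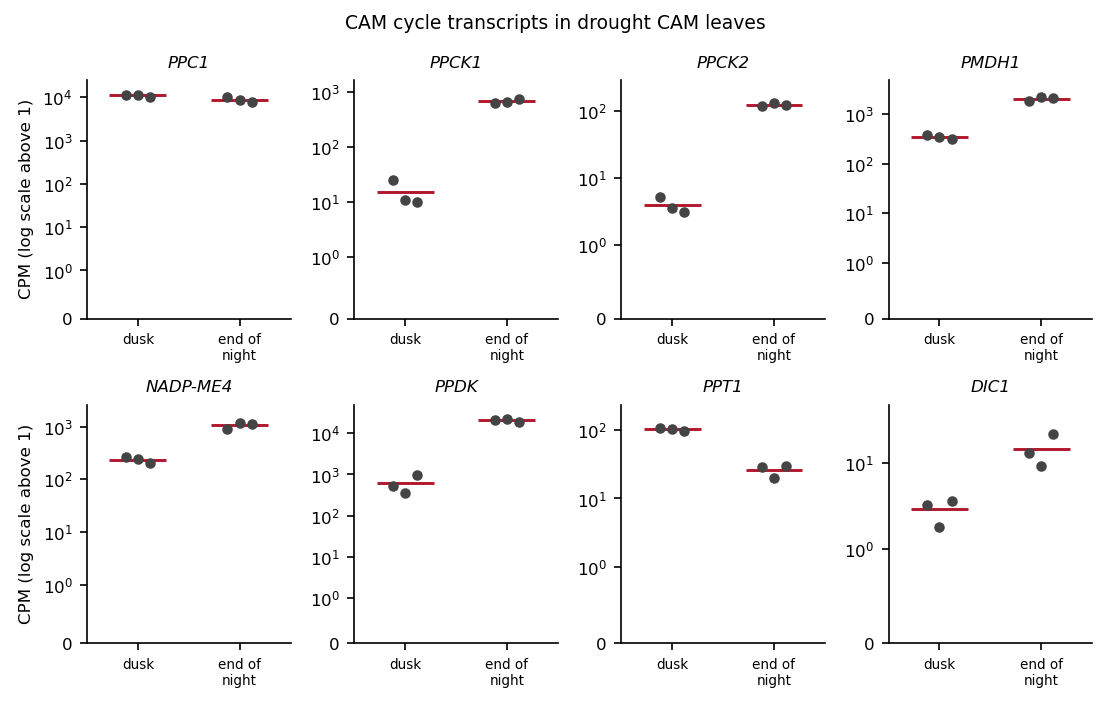
Level of 8 CAM cycle transcripts in drought CAM leaves at dusk and at the end of the night, in CPM (log scale above 1); points are libraries (3 at each time) and bars their means. PPCK1, PPCK2 and PPDK are far higher at the end of the night, PPC1 lies within a narrow range, and PPT1 is lower.

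Starch breakdown genes included large changes in both directions. Of 27 members, 13 fell and 8 rose (median -0.59), beside 32.2% and 31.5% of all genes, the share that rose being close to that of all genes. The falls included steps that phosphorylate and dephosphorylate the granule surface and that carry maltose into metabolism. After SEX1, the glucan phosphatase SEX4 stood at 172, 170.2 and 188 CPM at dusk and 6.73, 4.12 and 4.54 CPM at the end of the night (log2 change -5.10, SE 0.28, adjusted p = 1.4e-12) and its relative LSF1 at 151, 168 and 181 CPM at dusk and 2.54, 2.702 and 1.51 CPM at the end of the night (log2 change -6.17, SE 0.26, adjusted p = 1.6e-14). MEX1, the maltose exporter of the chloroplast, fell from 177 ± 1.93 to 10.7 ± 0.510 CPM (log2 change -4.04, SE 0.22, adjusted p = 1.3e-12), and DPE2, which uses maltose in the cytosol, from 316 ± 19.7 to 31.8 ± 4.83 CPM (log2 change -3.31, SE 0.18, adjusted p = 1.1e-12). Against this, BAM9, a beta-amylase-like protein of the chloroplast, stood at 45.7, 42.3 and 46.8 CPM at dusk and 4564, 3999 and 4644 CPM at the end of the night (log2 change 6.61, SE 0.20, adjusted p = 1.2e-16). BAM9 averaged 1040.1 ± 73.4 CPM in the earlier midnight libraries.

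Starch synthesis divided almost evenly, with 7 of 18 members risen and 9 fallen. GBSS1, the granule-bound synthase that makes amylose, stood at 31.3, 29.1 and 22.9 CPM at dusk and 2503, 2361 and 2184 CPM at the end of the night (log2 change 6.4, SE 0.32, adjusted p = 3.5e-13). The branching enzymes fell, SBE2.1 from 373 ± 31.4 to 40.5 ± 5.93 CPM (log2 change -3.20, SE 0.20, adjusted p = 7.4e-12) and SBE2.2 from 384 ± 22.9 to 31.3 ± 6.39 CPM (log2 change -3.62, SE 0.22, adjusted p = 4.4e-12). The plastidial phosphoglucomutase PGM1 fell by 2.85 (SE 0.22, adjusted p = 1.8e-10). ISA2, a subunit of debranching isoamylase, and PTST1, which brings GBSS1 to the granule, rose by 1.45 and 1.401 (SE 0.15 and 0.14, adjusted p = 2.4e-08 and 2.1e-08). In Arabidopsis both GBSS1 and PTST1 belong to amylose synthesis, and both were higher at the end of the night here.

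Glycolysis in the cytosol, the route from sugars to PEP, was lower for 11 of 22 genes and higher for 1. The steps next to PEP fell: the phosphoglycerate mutases iPGAM1 from 489.5 ± 65.8 to 118 ± 9.78 CPM (log2 change -2.06, SE 0.19, adjusted p = 4.6e-09) and iPGAM2 from 450.4 ± 89.3 to 93.9 ± 16.9 CPM (log2 change -2.26, SE 0.23, adjusted p = 1.4e-08), and the enolase ENO2 from 432 ± 118 to 123 ± 12.4 CPM (log2 change -1.81, SE 0.22, adjusted p = 2.0e-07). The aldolases FBA4 and FBA6 fell by 1.16 and 1.07 (SE 0.18 and 0.14, adjusted p = 8.5e-06 and 5.3e-07). The exception was NP-GAPDH, the non-phosphorylating glyceraldehyde-3-phosphate dehydrogenase that yields NADPH, at 6.95, 3.57 and 13.3 CPM at dusk and 1823, 2133 and 1957 CPM at the end of the night (log2 change 7.96, SE 0.53, adjusted p = 2.8e-11). Its libraries of the end of the night lay far above all dusk libraries.

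Sucrose metabolism and vacuolar sugar transport rose for 11 of 22 members and fell for 4 (median 0.69), beside 31.5% and 32.2% of all genes. Sucrose synthase SUS4 stood at 92.9, 77.4 and 50.1 CPM at dusk and 1210.4, 593 and 954 CPM at the end of the night (log2 change 3.64, SE 0.46, adjusted p = 6.7e-07). The vacuolar invertase VIN2, which splits sucrose in the vacuole, rose from 78.5 ± 4.37 to 538 ± 81.2 CPM (log2 change 2.78, SE 0.22, adjusted p = 2.4e-10). Sugar carriers of the SWEET family rose together, SWEET11 of the plasma membrane by 3.12, and SWEET2 and SWEET16 of the tonoplast by 4.22 and 2.92 (SE 0.22, 0.38 and 0.40, adjusted p = 4.1e-11, 5.6e-09 and 1.7e-06). UGP1, which makes UDP-glucose, fell by 1.26 (SE 0.17, adjusted p = 9.8e-07).

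Genes of the photosynthetic apparatus did not move as a block. Of 15 antenna genes, 9 fell and 1 rose (median -1.64; 9 and 3 from the 6 libraries alone). LHCB1.2 stood at 1934, 1990.3 and 1972 CPM at dusk and 233, 217 and 195 CPM at the end of the night (log2 change -3.19, SE 0.83, adjusted p = 0.00228), LHCA1 fell by 3.59 and LHCB6 by 3.67 (SE 0.79 and 0.81, adjusted p = 5.7e-04 and 5.9e-04). LHCA3 alone rose, from 65.3 ± 13.7 to 796 ± 103 CPM (log2 change 3.61, SE 0.47, adjusted p = 8.3e-07). ELIP1, an early light-induced protein that protects against excess light, stood at 37.0, 40.4 and 502 CPM at dusk and 28.3, 14.9 and 22.1 CPM at the end of the night (log2 change -3.15, SE 0.82, adjusted p = 0.00232). Its dusk mean rested on CAM ED replicate 3, without which the call was lost (adjusted p = 0.193). In the photosystems and electron transport, 5 of 21 genes rose and 5 fell (4 and 11 under library totals alone, 5 and 9 from the 6 libraries alone). In the main fit both shares were below the 31.5% and 32.2% of all genes. PSBS, which dissipates excess light energy, rose from 184 ± 60.6 to 680.2 ± 177 CPM (log2 change 1.89, SE 0.29, adjusted p = 5.9e-06), PSAN of photosystem I by 2.103 (SE 0.41, adjusted p = 1.2e-04) and PSAO by 2.67 (SE 0.53, adjusted p = 1.8e-04), while PSAE2, PSAH2 and PSBY fell by 1.95, 1.47 and 1.79 (adjusted p = 5.4e-05, 0.00150 and 6.1e-05).

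The Calvin-Benson cycle had 6 of 17 genes risen and 2 fallen, the latter 6 under library totals alone. The share that rose was close to the 31.5% of all genes. Rubisco activase (RCA), which removes inhibitory sugars from Rubisco, stood at 9865, 7459 and 6390.5 CPM at dusk and 49735, 56523 and 60959 CPM at the end of the night (log2 change 2.82, SE 0.33, adjusted p = 1.3e-07). Its lowest library at the end of the night lay far above its highest at dusk. GAPB, phosphoribulokinase (PRK) and the chloroplast aldolase FBA1 rose by 2.4, 1.67 and 1.66 (SE 0.34, 0.31 and 0.26, adjusted p = 2.0e-06, 6.8e-05 and 8.2e-06). The small inhibitor proteins CP12-1 and CP12-2, which bind GAPDH and PRK in the dark, fell by 2.08 and 2.03 (SE 0.21 and 0.20, adjusted p = 2.0e-08 and 9.8e-09). CP12-1 and CP12-2 thus moved in the opposite direction to RCA, GAPB, PRK and FBA1. The Rubisco small subunit RBCS1A was at 36028, 27498 and 23634 CPM at dusk and 18530.5, 28198 and 26635 CPM at the end of the night, with overlapping groups (log2 change -0.25, SE 0.39, adjusted p = 0.593).

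Chlorophyll synthesis held some of the larger rises among 18 genes tested, of which 4 rose and 7 fell (12 fallen under library totals alone and 11 from the 6 libraries alone). CHLH, the large subunit of magnesium chelatase, stood at 11.7, 12.2 and 24.4 CPM at dusk and 3006, 3179 and 2609.8 CPM at the end of the night (log2 change 7.51, SE 0.52, adjusted p = 5.4e-11). Its activator GUN4 rose by 2.95 (SE 0.50, adjusted p = 3.4e-05), the cyclase subunit CRD1 by 5.51 (SE 0.43, adjusted p = 2.9e-10) and CAO, which makes chlorophyll b, by 4.78 (SE 0.32, adjusted p = 2.2e-11). FLU, a repressor of the pathway in darkness, fell from 164 ± 8.09 to 11.3 ± 1.92 CPM (log2 change -3.86, SE 0.42, adjusted p = 1.2e-07), and the divinyl reductase DVR from 148 ± 6.69 to 31.4 ± 1.67 CPM (log2 change -2.24, SE 0.40, adjusted p = 5.2e-05). Photorespiration, which recycles the product of oxygenation by Rubisco, rose for 10 of 17 genes and fell for 3, of which 1 remained without CAM EN replicate 1. AGT1, GLDP2 and PGLP1 rose by 3.26, 4.02 and 3.099 (SE 0.28, 0.33 and 0.29, adjusted p = 1.2e-09, 4.8e-10 and 5.8e-09). BOU, a mitochondrial carrier that photorespiration needs in Arabidopsis, rose furthest, from 7.67 ± 2.43 to 484 ± 64.2 CPM (log2 change 5.98, SE 0.49, adjusted p = 1.1e-09). Antioxidant enzymes ran the other way, with 6 of 10 fallen. The superoxide dismutases FSD3 and FSD1 fell by 3.16 and 2.26 (SE 0.27 and 0.31, adjusted p = 1.7e-09 and 1.7e-06), and only the copper/zinc enzyme CSD1 rose (log2 change 1.05, SE 0.19, adjusted p = 5.5e-05).

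Abscisic acid (ABA) is the hormone of water deficit and closes stomata. Genes of its perception and signalling were higher at the end of the night in 13 of 17 cases, and none was lower (1 under library totals alone). The receptor PYR1 stood at 0.253, 0.475 and 0.805 CPM at dusk and 14.4, 15.1 and 18.6 CPM at the end of the night (log2 change 4.93, SE 0.34, adjusted p = 4.5e-11). The phosphatases that the receptors inhibit rose, ABI1 by 1.82, HAB2 by 2.03 and PP2CA by 1.89 (SE 0.18, 0.19 and 0.25, adjusted p = 1.7e-08, 6.4e-09 and 6.9e-07), and so did the kinase SNRK2.2, which they restrain (log2 change 1.35, SE 0.16, adjusted p = 1.1e-07). A receptor, 3 of its target phosphatases and the kinase were thus higher at the end of the night together. In ABA synthesis and hydroxylation 9 of 13 rose and 2 fell (4 risen under library totals alone). ABA4, ABA3, ABA1 and ABA2 rose by 2.79, 1.87, 1.63 and 1.51 (adjusted p = 1.9e-07, 1.7e-07, 1.9e-05 and 1.1e-07), and AAO3, the aldehyde oxidase of the last step, fell by 2.52 (SE 0.31, adjusted p = 4.0e-07). NCED4, a carotenoid cleavage enzyme, fell by 2.00 (SE 0.46, adjusted p = 7.9e-04).

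Dehydration response genes were few in the tested set (7), with 2 risen and 2 fallen, near the 31.5% and 32.2% of all genes. HB7, a homeodomain factor induced by ABA, stood at 175, 127 and 144 CPM at dusk and 803, 939 and 787 CPM at the end of the night (log2 change 2.503, SE 0.46, adjusted p = 8.3e-05), and the dehydrin COR47 rose from 10.3 ± 0.552 to 50.7 ± 25.9 CPM (log2 change 2.29, SE 0.34, adjusted p = 5.2e-06). RD20, a calcium-binding protein of lipid droplets, fell by 1.41 (SE 0.25, adjusted p = 4.6e-05). RD22 fell by 1.35 (adjusted p = 0.0225), with overlapping groups and a call that was lost without CAM ED replicate 3, CAM EN replicate 2 or CAM EN replicate 3 (adjusted p up to 0.316).

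Of 23 genes for osmoprotectants and inositol 16 rose and 3 fell (median 1.42). Genes for proline synthesis (P5CS1) and for proline breakdown (PRODH1 and PRODH2) were among the risen members. P5CS1, the first enzyme of proline synthesis, stood at 33.0, 36.5 and 30.9 CPM at dusk and 1344, 1655 and 2146 CPM at the end of the night (log2 change 5.68, SE 0.30, adjusted p = 7.3e-13). PRODH1, which oxidises proline in mitochondria, stood at 1.77, 0.951 and 6.84 CPM at dusk and 559, 508 and 927 CPM at the end of the night (log2 change 7.72, SE 0.76, adjusted p = 3.2e-08), and PRODH2, which may share its reads, at 2.27, 1.19 and 4.56 CPM at dusk and 633, 619.6 and 935 CPM at the end of the night (log2 change 8.10, SE 0.72, adjusted p = 8.6e-09). SIP1, a raffinose synthase family protein, stood at 58.6, 66.9 and 65.9 CPM at dusk and 5472, 4986 and 4262 CPM at the end of the night (log2 change 6.26, SE 0.47, adjusted p = 1.6e-10). The groups of these genes lay far apart. P5CS1 averaged 2138 ± 96.8 CPM in the earlier midday libraries and 59.8 ± 21.6 CPM at midnight, whereas PRODH2 averaged 27.6 ± 2.93 CPM at midday and 309 ± 86.3 CPM at midnight. The trehalose phosphate synthase family proteins TPS11 and TPS7 rose by 1.83 and 1.22 (SE 0.17 and 0.12, adjusted p = 5.4e-09 and 1.0e-08).

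Responses to darkness and sugar starvation were higher for 12 of 18 genes and lower for 2, with 5 and 3 under library totals alone. BZIP63, a transcription factor that the energy sensor SnRK1 phosphorylates, stood at 11.1, 18.1 and 14.6 CPM at dusk and 152, 104 and 146 CPM at the end of the night (log2 change 3.19, SE 0.25, adjusted p = 2.5e-10). MCCA and ETFQO, which break down branched-chain amino acids when sugar is short, rose by 1.68 and 1.16 (SE 0.26 and 0.20, adjusted p = 7.0e-06 and 2.9e-05). DRM1, a dormancy-associated gene, fell from 3002 ± 545 to 486 ± 92.5 CPM (log2 change -2.63, SE 0.33, adjusted p = 4.6e-07). KIN10, the catalytic subunit of SnRK1, rose by 0.65 (SE 0.13, adjusted p = 2.1e-04), and under library totals alone its change was 0.20 (adjusted p = 0.388). In nitrogen assimilation 6 of 8 genes rose. The nitrate transporter NRT1.1 stood at 3.54, 2.61 and 6.31 CPM at dusk and 58.3, 69.3 and 44.1 CPM at the end of the night (log2 change 3.79, SE 0.26, adjusted p = 3.7e-11), and the cytosolic glutamine synthetase GLN1.2 and the glutamate synthase GLT1 rose by 1.72 and 2.14 (SE 0.27 and 0.43, adjusted p = 8.8e-06 and 2.0e-04). The chloroplast glutamine synthetase GLN2 fell by 0.87 (adjusted p = 0.0167), a call that was lost without CAM ED replicate 1 or CAM EN replicate 1 (adjusted p up to 0.0651).

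Aquaporins, the water channels of membranes, were higher at the end of the night for 9 of 11 genes and lower for none (7 higher under library totals alone), against 31.5% of all genes. PIP2.2 stood at 55.0, 53.0 and 38.8 CPM at dusk and 344, 323 and 279.8 CPM at the end of the night (log2 change 2.69, SE 0.35, adjusted p = 7.8e-07) and PIP1.3 at 324, 283 and 297 CPM at dusk and 1014, 1140.3 and 929 CPM at the end of the night (log2 change 1.77, SE 0.22, adjusted p = 3.0e-07). PIP1.2, PIP1.5, PIP2.4 and PIP2.6 rose by 1.70, 1.67, 2.29 and 1.92 (adjusted p = 1.8e-08, 1.2e-07, 1.3e-06 and 2.6e-06), and the close sequences of the family leave the division among them uncertain. Fatty acid desaturases rose without exception, 5 of 5 (median 4.50). FAD7 of the chloroplast stood at 10.6, 9.75 and 11.1 CPM at dusk and 1041, 1449 and 1017 CPM at the end of the night (log2 change 6.80, SE 0.39, adjusted p = 2.1e-12), FAD3 of the endoplasmic reticulum rose from 1.79 ± 0.614 to 177 ± 19.4 CPM (log2 change 6.62, SE 0.47, adjusted p = 1.6e-10), and FAD2, FAD6 and SSI2 rose by 4.50, 3.42 and 2.24 (adjusted p = 1.1e-06, 5.5e-07 and 3.4e-10). Together with THI1 and THIC, the third thiamine gene, TH1, fell by 0.90 (SE 0.24, adjusted p = 0.00280).

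Stomatal channels, pumps and photoreceptors rose for 8 of 13 genes and fell for 1. GORK, the potassium channel of guard cells that opens during stomatal closure, stood at 6.19, 3.57 and 3.76 CPM at dusk and 149, 172 and 138 CPM at the end of the night (log2 change 5.08, SE 0.28, adjusted p = 1.4e-12). The anion channels SLAC1 and SLAH3 rose by 2.17 and 2.86 (SE 0.24 and 0.33, adjusted p = 6.1e-08 and 1.8e-07), the kinase HT1 by 1.70 (SE 0.19, adjusted p = 7.2e-08), and the blue light receptors PHOT1 and PHOT2 by 2.25 and 1.51 (adjusted p = 8.4e-06 and 4.9e-07). The potassium channel KAT2 did not pass (log2 change -0.53, SE 0.24, adjusted p = 0.0576). Guard cell markers moved with these genes: of 7 in the table, 5 rose and none fell, and their summed level was 34.5 to 41.8 CPM at dusk and 203 to 235 CPM at the end of the night. GORK alone made up most of the sum at the end of the night, so the sum mainly follows that channel. GORK, SLAC1, KAT2, HT1 and FAMA are in both lists, and ALMT12 is also among the malate carriers. The developmental marker FAMA was at 9.10, 7.61 and 5.77 CPM at dusk and 12.9, 10.1 and 11.2 CPM at the end of the night and had the smallest change of the risen markers (log2 change 0.60, SE 0.26, adjusted p = 0.0475), a call that was lost without any 1 of 4 of the 6 libraries, namely CAM ED replicates 2 and 3 and CAM EN replicates 1 and 3. The part that the number of guard cells had in these rises was not tested.

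Markers of other leaf tissues were checked in the same way. Mesophyll genes summed to 32359 to 49001 CPM at dusk and 73615 to 93801 CPM at the end of the night, and of this list RCA, GAPB and PRK rose while LHCA1 fell. The higher sum came mainly from RCA, whereas RBCS1A, also abundant and in this list, had overlapping groups. The mesophyll list is made of photosynthesis genes, and the members named here are also in the photosynthesis lists above. Vascular markers summed to 335 to 427 and 578 to 812 CPM, although their median change was -0.075 and more of them fell than rose. Of 9, the xylem cellulose synthases IRX1, IRX3 and IRX5 and the factor HB8 fell by 1.93, 2.02, 1.59 and 0.64 (adjusted p = 1.5e-06, 4.2e-09, 1.2e-07 and 0.00150), while SWEET11 and XCP2 rose. Epidermal markers summed to 278 to 309.6 and 472 to 506 CPM, and ANL2 rose by 0.88 (adjusted p = 3.9e-07), FDH by 0.81 (adjusted p = 2.2e-05) and PDF2 by 0.62 (adjusted p = 0.00956), while LACS2 fell by 0.96 (adjusted p = 0.00200). Under library totals alone PDF2 did not pass (adjusted p = 0.596). Markers of dividing cells summed to 17.0 to 19.6 and 23.7 to 27.8 CPM, and MCM2 had no count at the end of the night. CYCB1.1 rose, from 0.337 ± 0.146 to 2.14 ± 1.01 CPM (log2 change 2.61, SE 0.53, adjusted p = 1.9e-04). No marker list had its defining genes at 0 throughout, and the mesophyll markers of a leaf had counts in all 6 libraries.

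The expansins EXPA8 and EXPA10, which loosen cell walls, rose by 2.69 and 2.29 (SE 0.74 and 0.64, adjusted p = 0.00371 and 0.00405) within a list of which 4 of 9 genes rose, beside 31.5% of all genes. Of 9 wax and cuticle genes 3 fell (6 under library totals alone), close to the 32.2% of all genes that fell. Of single members, the transporter ABCG12 (log2 change -1.51, SE 0.26, adjusted p = 2.4e-05) and CER3 (log2 change -0.94, SE 0.24, adjusted p = 0.00193) fell. SHN1, a transcription factor of cuticle synthesis, rose (log2 change 1.31, SE 0.22, adjusted p = 2.2e-05). Flavonoid synthesis fell for 5 of 10 genes. Chalcone synthase (CHS), its first committed enzyme, stood at 74.7, 75.5 and 102 CPM at dusk and 4.34, 5.12 and 3.41 CPM at the end of the night (log2 change -4.27, SE 0.84, adjusted p = 2.0e-04), and the flavonol synthase FLS1 fell by 2.85 (SE 0.42, adjusted p = 6.8e-06). Among heat shock genes 5 of 15 rose and 3 fell, the former close to the 31.5% of all genes that rose. Of single members, the transcription factors HSFA2 and HSFC1 rose, HSFA2 from 9.40 ± 1.86 to 60.2 ± 26.7 CPM (log2 change 2.68, SE 0.32, adjusted p = 2.6e-07) and HSFC1 from 10.4 ± 0.799 to 69.5 ± 33.4 CPM (log2 change 2.74, SE 0.42, adjusted p = 1.1e-05), whereas the chaperone HSP90.1 fell by 1.52 (SE 0.20, adjusted p = 7.6e-07). The plot of all list members shows these divisions, in particular the wide spread within starch breakdown, the clock and chlorophyll synthesis.

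**Figure D4:**
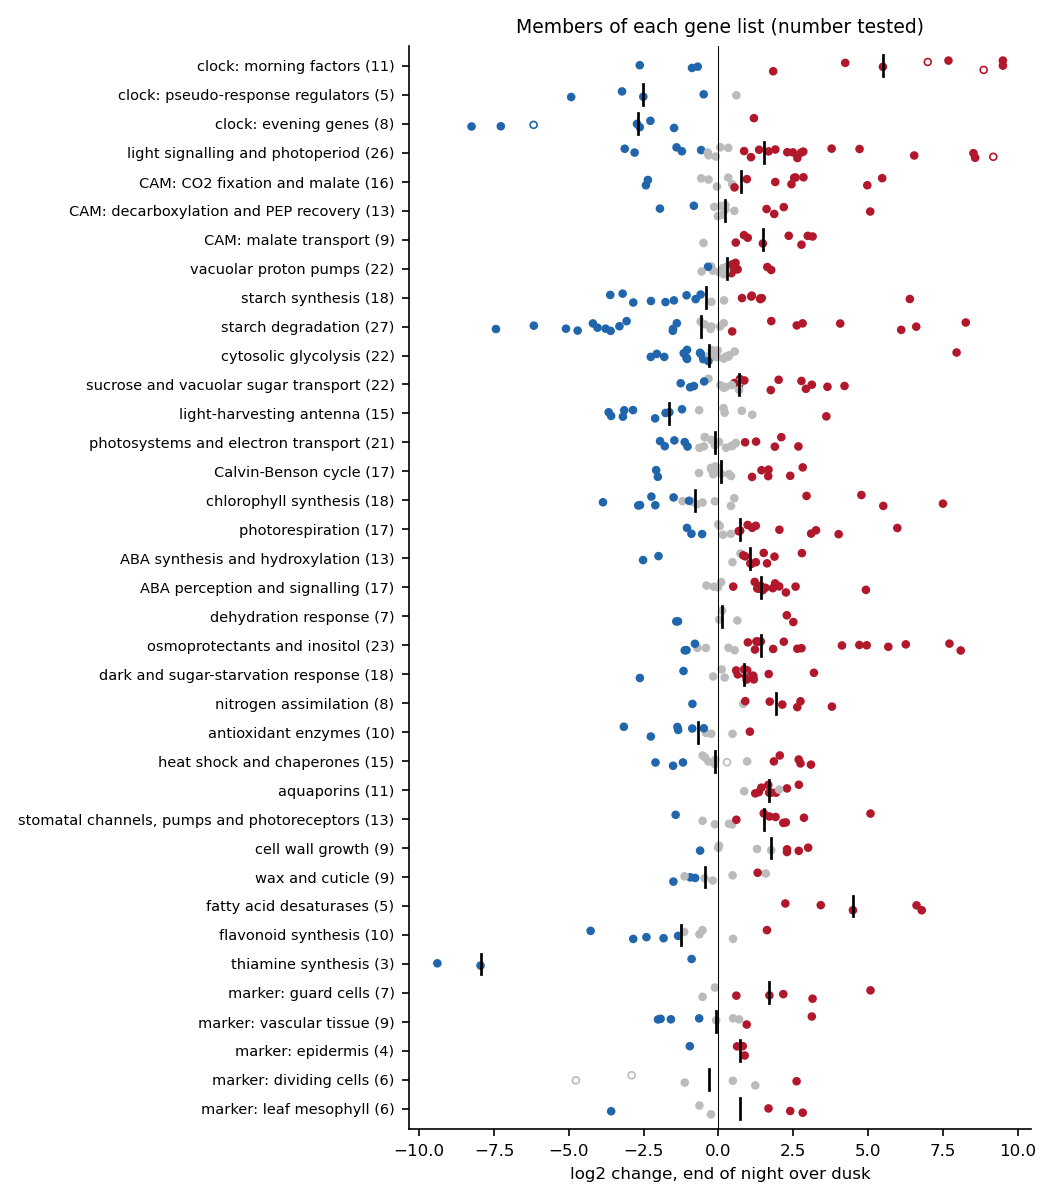
Log2 change from dusk to the end of the night (x axis) of each member tested of the 37 gene lists in drought CAM leaves; red and blue points passed the adjusted p of 0.05, grey ones did not, black bars are medians and open points have 3 counts or fewer over a group, where the fitted change depends on the prior count. No aquaporin, desaturase or malate carrier passed the test as lower, and no thiamine synthesis gene passed it as higher.

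The same comparison was made in re-watered leaves, which differ from the drought leaves in water supply and in photosynthetic mode. There 29.1% of the genes rose and 28.8% fell. Across all 14065 genes, which are not independent replicates, the changes in both modes, which share no library, had a Pearson correlation of 0.710. Of the genes that rose in drought CAM leaves 58.4% also rose in re-watered leaves, which is 63.2% of those that rose there. Of the fallen genes the shares were 61.2% and 68.3%. The difference itself was tested as an interaction, the change in CAM minus the change in reC3. 2424 genes (17.2%) had a higher value in CAM and 2666 (19.0%) a lower one, together 36.2%. Under library totals alone, where the median interaction moved from -0.051 to 0.47, the numbers were 4265 and 1267.

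LHY, CCA1, GI and FKF1 moved the same way in both modes. LHY changed by 9.51 in CAM and 10.28 in reC3, a difference of -0.76 (SE 0.29, adjusted p = 0.0464) whose call was lost without any 1 of 9 of the 12 libraries and under every other fit tried (adjusted p of 0.0524 to 0.538). CCA1 (-0.32, SE 0.43, adjusted p = 0.640), GI (-0.41, SE 0.38, adjusted p = 0.423) and FKF1 (-0.85, SE 0.44, adjusted p = 0.135) did not pass the test of the difference. PRR5, PRR3 and PRR9 had larger differences. PRR5 was at -3.22 in CAM and -0.31 in reC3 (difference -2.91, SE 0.45, adjusted p = 4.9e-05), PRR3 at -2.51 and 0.23 (difference -2.74, SE 0.34, adjusted p = 4.3e-06), and PRR9 at 0.60 and 3.57 (difference -2.96, SE 0.53, adjusted p = 2.1e-04). Without reC3 EN replicate 1 these differences were -3.13 (adjusted p = 2.3e-05), -3.03 (adjusted p = 3.1e-08) and -3.22 (adjusted p = 3.2e-05). For each, the level at the end of the night relative to dusk was lower in CAM.

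In the CAM cycle the kinase and its target took opposite places. The PEPC kinases rose in CAM far more than in reC3, with a difference of 4.42 (SE 0.48, adjusted p = 1.4e-06) for PPCK1, which changed by 1.05 in reC3, and of 4.47 (SE 0.42, adjusted p = 1.8e-07) for PPCK2. In the re-watered leaves PPCK1 stood at 68.4, 58.7 and 39.1 CPM at dusk and 62.8, 158 and 124 CPM at the end of the night, so the larger gap between the modes lay at the end of the night. PPC1 rose by 3.12 in reC3 (SE 0.37, adjusted p = 2.6e-07) and stood there at 624, 730.3 and 519 CPM at dusk and 1929, 9382 and 4979 CPM at the end of the night, so that its difference between modes was -3.45 (SE 0.50, adjusted p = 2.6e-05). BCA1 and BCA3 differed likewise, by -4.14 (SE 0.84, adjusted p = 6.8e-04) and -3.94 (SE 0.75, adjusted p = 4.3e-04). Without reC3 EN replicate 1 the values were 4.13 (adjusted p = 1.2e-06) for PPCK1, -3.85 (adjusted p = 1.1e-07) for PPC1 and -3.50 (adjusted p = 0.00244) for BCA1. PPDK rose in both modes, by 5.07 in CAM and 5.35 in reC3, and the difference did not pass (-0.28, SE 0.77, adjusted p = 0.807). RP1, at 0.23 in CAM, rose by 2.58 in reC3 (difference -2.35, SE 0.20, adjusted p = 7.6e-08). The dicarboxylate carriers rose in CAM and fell in reC3, DIC1 by 1.23, DIC2 by 1.51 and DIC3 by 1.15, with differences of 3.58 (SE 0.59, adjusted p = 1.1e-04), 4.29 (SE 0.64, adjusted p = 4.2e-05) and 4.14 (SE 0.66, adjusted p = 7.6e-05).

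Over gene lists the tests of the difference fell to 1 side in several pathways, beside 17.2% of all genes higher in CAM and 19.0% lower. Photosynthesis genes were almost all lower in CAM relative to reC3: 13 of 15 antenna genes, 19 of 21 of the photosystems, 15 of 17 of the Calvin-Benson cycle and 15 of 18 of chlorophyll synthesis, and none was higher. Under library totals alone 2 Calvin-Benson genes and 1 of chlorophyll synthesis were higher in CAM. Without reC3 EN replicate 1 the counts lower in CAM were 10, 16, 14 and 14, and 1 gene of chlorophyll synthesis was higher. In re-watered leaves 20 of 21 photosystem genes and 10 of 15 antenna genes rose over the night, and none fell. ABA signalling and sugar starvation responses lay on the other side, with 12 of 17 and 9 of 18 genes higher in CAM and none lower. Without reC3 EN replicate 1 these were 11 and 7, with 1 starvation gene lower. Osmoprotectant genes were higher in 10 of 23 cases and lower in 2 (10 and 4 without that library). Mesophyll markers summed to 15869 to 27430.1 CPM at dusk and 123439 to 206935 CPM at the end of the night in reC3, a larger shift than in CAM. These markers are photosynthesis genes, and RCA, GAPB, PRK and LHCA1 are also in the lists above. Their sum thus repeats part of these differences and is no separate measure of the share of mesophyll, which was not tested.

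The smallest p-values of the difference named 6 genes in each direction. Among the genes higher in CAM was AT1G79900, annotated as a mitochondrial ornithine carrier, which stood at 3.41, 5.47 and 2.42 CPM at dusk and 601, 429 and 985 CPM at the end of the night in CAM and at 13.1, 15.5 and 13.4 CPM at dusk and 13.5, 18.8 and 21.3 CPM at the end of the night in reC3. Its value of 7.46 in CAM against 0.35 in reC3 gave a difference of 7.11 (SE 0.53, adjusted p = 2.6e-08). The kelch repeat protein AT1G67480 rose by 7.498 against 2.5 (difference 4.998, SE 0.33, adjusted p = 2.4e-09). 4 others rose in CAM and fell in reC3: the phloem protein PP2-A13 (AT3G61060) (2.52 and -1.49), the neutral invertase family protein AT1G22650 (1.19 and -2.09), the tetratricopeptide repeat protein AT2G39090 (1.62 and -1.25), and AT1G80460, similar to glycerol kinase (1.62 and -0.65).

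In the other direction, the polyamine oxidase AT5G13700 stood at 175, 307 and 232 CPM at dusk and 4.49, 7.96 and 5.11 CPM at the end of the night in CAM and at 159, 141 and 136 CPM at dusk and 94.2, 57.6 and 67.9 CPM at the end of the night in reC3 (difference -4.34, SE 0.33, adjusted p = 1.9e-08). The presequence protease AT1G49630, which degrades the targeting peptides of organelle proteins, fell by 5.16 in CAM and was at -0.54 in reC3 (difference -4.62, SE 0.37, adjusted p = 2.8e-08). AT3G45770 and AT3G03080, both annotated as oxidoreductases, fell by 2.18 and 2.12 in CAM and were at 0.045 and -0.079 in reC3. The cupin AT3G04300 fell by 1.97 in CAM and rose by 0.71 in reC3 (difference -2.68, SE 0.23, adjusted p = 7.6e-08), and RP1 was the sixth. All 12 kept their side of the threshold without any 1 of the 12 libraries of both modes. They were chosen for the smallest p of this same difference, so this adds no separate support. The plot of changes in both modes sets these genes beside PPC1, PPCK1 and the clock genes.

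**Figure D5:**
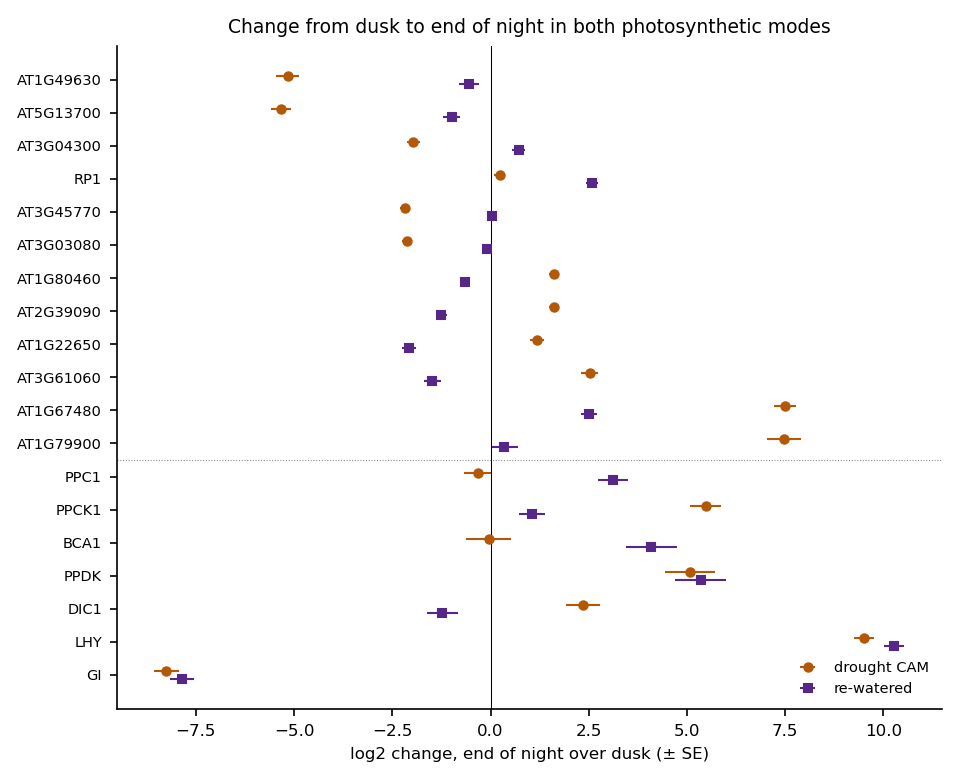
Log2 change from dusk to the end of the night (x axis, ± SE) in drought CAM leaves (circles) and re-watered leaves (squares), n = 3 libraries at each time; above the dotted line are the 12 genes with the smallest p of the difference, 6 in each direction, below it selected genes of the CAM cycle and the clock. PPCK1 rises mainly in CAM and PPC1 and BCA1 mainly in reC3, while PPDK, LHY and GI move the same way in both.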

How the data were processed

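RNA-seq counts per gene were deposited by the authors in 1 table with 24 columns of raw read counts, 1 for each library, on Arabidopsis gene identifiers of the TAIR10 build; the build and CASAVA 1.8.2 are named in the submitters' processing notes, while the aligner and the counting tool were not given in the sources used here. Libraries were non-stranded TruSeq libraries from polyA RNA, per the labels' protocols, so antisense genes cannot be told apart from their partners. The table has 40 more value columns, which were left out. Depth of the 6 libraries was 6008515 to 8083361 counts.

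Counts were fitted with edgeR 4.0.16 (R 4.3.3; TMM factors, filterByExpr, robust quasi-likelihood) on all 24 libraries in 8 groups, which left 14065 genes, and contrasts gave the change in CAM, in reC3 and their difference. Benjamini-Hochberg adjustment ran over all genes. Genes with 0 counts over a group were given against a floor of 3 counts, and those with 1 to 3 counts as a ratio of scaled counts with an exact (Clopper-Pearson) 95% interval, both covering counting error only. Alternatives were RLE scaling, library totals alone, DESeq2 1.42.0, no count filter, subsets of libraries, a replicate block, a stricter threshold and each library left out. The procedure was tested on simulated data.

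Named genes were the 12 largest changes in each direction (at least 10 CPM, no overlap), up to 6 of each list by p, all tested members of the clock and CAM lists, and the 6 smallest p in each direction of the difference. The comparison, the members and the gene lists were chosen with earlier results of these data known. No sequences are given.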

Additional observations from a re-analysis of the deposited data

Results flagged for a closer look

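The change from dusk to the end of the night differed between drought CAM and re-watered leaves for 37 of 81 genes named from the clock and CAM lists and from the largest changes, each past an adjusted p of 0.05 in the edgeR test of the difference (CAM minus reC3, log2). Of all genes tested 36.2% passed that test. Another 11 genes are given last that were named for the smallest p of this same difference and so passed it by their choice.

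Among clock genes the difference was -0.76 for LHY, 0.74 for RVE8, -1.71 for LNK1, -2.74 for PRR3, -2.91 for PRR5, -2.96 for PRR9, 0.52 for TOC1, -0.82 for ZTL and -0.74 for ELF3. TOC1 was at -0.49 in CAM and -1.01 in reC3, and its call was lost without any 1 of 5 of the 12 libraries or from the 12 dusk and end-of-night libraries (adjusted p = 0.0793). The ELF3 call was lost without any 1 of 6 libraries, from those 12 libraries and with library totals as the only scaling (adjusted p = 0.0748 and 0.610). That of LHY was lost without any 1 of 9 libraries and under all 6 other fits, where the adjusted p was 0.0524 to 0.538. That of RVE8 was lost without CAM ED replicate 2, CAM EN replicate 3 or reC3 ED replicate 3 and from the 12 libraries (adjusted p = 0.0750). LNK1 lost its call without reC3 EN replicate 2 and, like ZTL, under library totals alone (adjusted p = 0.0752 and 0.365).

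In CO2 fixation the difference was 4.42 for PPCK1, 4.47 for PPCK2, -3.45 for PPC1, -3.66 for PPC2, -4.14 for BCA1, -3.94 for BCA3, 1.749 for BCA5 and 1.43 for BCA6. For malate dehydrogenases it was -1.24 for PMDH1, -0.998 for PMDH2, -2.05 for pNAD-MDH and -1.19 for NADP-MDH. PMDH2 lost its call without CAM EN replicate 1 or reC3 ED replicate 2. Under library totals alone PMDH1, PMDH2 and NADP-MDH lost theirs (adjusted p = 0.0543, 0.189 and 0.0641). In decarboxylation, PEP recovery and transport it was -1.41 for PPT1, -3.29 for PPT2, 1.09 for NAD-ME1, -2.35 for RP1, -2.42 for RP2, 3.58 for DIC1, 4.29 for DIC2, 4.14 for DIC3 and -1.75 for DIT1. DIT1 lost its call without reC3 EN replicate 1.

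Of the largest changes over the night, AT4G13345 and AT3G24460 rose more in CAM by 2.94 and 2.66. SEX1 (-2.75), THIC (-2.35), AT2G21660 (-3.12), AT4G04330 (-1.52) and AT1G51100 (-2.42) had a lower value in CAM. The call of AT4G04330 was lost without CAM EN replicate 2 or reC3 EN replicate 1 and under library totals alone (difference -0.95, adjusted p = 0.132), and that of AT1G51100 without reC3 EN replicate 1. THIC was at -1.16 (adjusted p = 0.0479) without that library.

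The genes named for the smallest p of the difference were at 2.87 for AT2G39090, 4.998 for AT1G67480, 4.01 for AT3G61060, 3.27 for AT1G22650, 2.27 for AT1G80460 and 7.11 for AT1G79900. In the other direction they were at -4.34 for AT5G13700, -4.62 for AT1G49630, -2.22 for AT3G45770, -2.04 for AT3G03080 and -2.68 for AT3G04300.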

How the results depend on the processing

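In drought CAM leaves 4432 genes were higher and 4524 lower at the end of the night. The counts lay within 1.5 times of these from the 6 libraries alone (4318 and 4501), from the 12 dusk and end-of-night libraries (4113 and 4306), with RLE scaling (4666 and 4350), with DESeq2 (4741 and 4355) and with no filter on low counts (4434 and 4565). Under library totals alone they were 2648 and 6248, and with an adjusted p under 0.01 and at least 2-fold 2603 and 2899. Leaving out each library in turn gave 4085 to 4271 and 4184 to 4406. For the difference between modes, 2424 were higher and 2666 lower in CAM. Library totals alone gave 4265 and 1267, the stricter threshold 1190 and 1475, and leaving out each library 2115 to 2665 and 2311 to 2852. The 12 dusk and end-of-night libraries, without those of the earlier series, gave 1997 and 2067. With the replicate number as a block the counts were 4456 and 4534, and 2420 and 2640. Same-numbered dusk and end-of-night libraries did not deviate together (correlations of -0.20, 0.059 and -0.11), so no pairing by number was seen. With so few libraries these correlations cannot settle whether a number marks a shared plant, tray or day, which the labels do not give. Of 5013 values of single genes under the alternatives, 4876 kept their side of the threshold, 92 lost a call and 45 gained one. 67 values turned sign, in each case with no call under either setting. Lists with counts moved by over 1.5 times beyond those given above were proton pumps (2 lower from the 6 libraries, none without CAM ED replicate 2 or CAM EN replicate 1), glycolysis (2 higher from the 6 libraries or without CAM ED replicate 3), antenna genes (2 higher with the replicate block), antioxidants and flavonoids (2 higher each from the 6 libraries), dehydration genes (1 lower from the 6 libraries), heat shock (5 lower under totals), stomatal genes (2 lower under totals, none from the 6 libraries or without CAM EN replicate 1), wall growth (none lower without CAM EN replicate 3), wax (higher 4 with DESeq2, which includes a gene under the count filter, 3 from the 6 libraries, 2 with RLE scaling, no filter or without CAM EN replicate 2), guard cell markers (1 lower under totals or without CAM ED replicate 1 or CAM EN replicate 2), dividing cell markers (2 higher from 12 libraries, 2 lower with DESeq2, 1 lower under totals or without CAM EN replicate 2) and mesophyll markers (3 lower under totals, 2 from the 6 libraries). NIA1 (log2 change 2.74, SE 1.03, adjusted p = 0.0256) lost its call without CAM ED replicate 1, CAM ED replicate 3 or CAM EN replicate 2, as did CER2 and CESA5 without CAM EN replicate 3 and MYB12 without CAM EN replicate 2. The cause of these shifts was not tested. In simulated counts 50% of 2-fold and 96% of 4-fold changes were recovered for the change in CAM. For the difference between modes 19.4% and 86.9% were recovered. Only 98 genes were given a 2-fold and 99 a 4-fold change there, of 13787, whereas 63.7% of genes were called in the libraries. Unchanged genes were called in 11 cases for the change in CAM and in 5 for the difference. Every simulated gene was drawn with 1 fixed spread, whereas the re-watered libraries of the end of the night varied more than the others. Of the 4432 risen and 4524 fallen genes, 2780 and 3097 changed at least 2-fold, so smaller changes were called too. The share of changes missed in the libraries themselves was not tested.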

Other observations

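Protein synthesis genes formed one of the larger groups that moved, counted here by the short descriptions in the authors' deposited table after values had been seen, so the counts are a description only. Of 177 ribosomal proteins with no organelle in their description 130 fell and 4 rose (median log2 change -0.92), beside 32.2% of all genes that fell. Of 101 described for an organelle 51 fell and 12 rose. Pentatricopeptide repeat proteins, which process RNA in organelles, fell in 125 of 209 cases and rose in 15 (median -1.32), and of 37 tRNA synthetases 19 fell. In re-watered leaves 84 of the first group fell and 7 rose, but of the organelle group 32 fell and 38 rose, of the pentatricopeptide repeat proteins 100 fell and 20 rose, and of the tRNA synthetases 10 fell and 13 rose.

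Over all genes 31.5% rose, and the difference between modes was higher in CAM for 17.2%. NAC domain transcription factors, many of them known from stress and senescence, rose in 22 of 37 cases (59.5%) and fell in 1 (18 and 5 under library totals alone). The difference between modes was higher in CAM for 23 of them and lower for 1, and in re-watered leaves 9 rose and 8 fell. Of 30 WRKY factors 13 rose and 2 fell (7 and 3 under library totals alone). MATE efflux proteins rose in 20 of 28 cases, UDP-glycosyltransferases in 45 of 66 and cytochromes P450 in 43 of 103, where 4, 7 and 7 fell. As shares these were 71.4%, 68.2% and 41.7%, the last not far from that of all genes. Under library totals alone 17, 35 and 30 rose and 5, 12 and 17 fell. RING/U-box proteins, mostly ubiquitin ligases, rose in 61 of 132 cases and fell in 20, but under library totals alone the counts were 29 and 30.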
